A study of Mus musculus with 7 samples.

Results

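The mitochondrial DNA of the mouse carries 37 genes, and the deposited table held a row for each of them, all with names that start with mt-. They were chosen by that prefix alone, out of 54309 genes, and comprised 13 protein-coding, 2 rRNA and 22 tRNA genes. Transcript abundance was measured by RNA sequencing in lumbar (L4-6) dorsal root ganglia of male C57bl/6 mice aged 6 to 8 weeks. Both groups carried the same lesion, an injury of the sciatic nerve, and no uninjured sample was analysed here. In 4 samples (ZT20) the injury was made at Zeitgeber time 20, counted in hours from lights on, and in 3 samples (ZT8) at Zeitgeber time 8. Ganglia were taken 72 h after injury, so injury and dissection fell at the same clock time within a group. The labels' protocols describe enzymatic dissociation and an albumin gradient that enriches neurons, followed by a low-input library from total RNA. The labels do not say whether a sample is 1 animal or a pool, so p-values measure the spread between these samples, which may in part be technical.

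Mitochondrial DNA is transcribed from both strands as long precursors that span many genes. The tRNAs sit between most of the protein-coding and rRNA genes, and their excision by nucleases releases the other transcripts. The proteins made from the mRNAs are core subunits of respiratory chain complexes I, III and IV and of ATP synthase, and the rRNAs and tRNAs serve the mitochondrial ribosome that makes them. Sensory neurons depend on this machinery for the ATP that drives ion pumping and axonal transport.

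Values are TPM, a length-normalised relative abundance of transcripts that the authors had scaled within each sample. Each of the 7 columns summed to the same total, so a rise in some genes lowers the others. The number of genes above 0 TPM ranged from 24192 to 25238 at ZT20 and from 18297 to 22973 at ZT8, the lowest being ZT8 replicate 2. All 12 listed neuron markers were tested and above 0, at a summed 19667 to 24344 TPM at ZT20 and 15141 to 22175 TPM at ZT8. Of these, Nefh and Elavl4 rose at ZT20 without overlap, by 1.36 and 1.08 on the log2 scale (limma adjusted p = 0.00569 and 0.00735), and 0 fell. Over all tested genes, 12.8% had a limma adjusted p under 0.05 and were higher at ZT20, and 3.61% were lower. Without overlap, 24.5% of all tested genes were higher and 8.72% lower at ZT20. The 8 satellite glia markers, led by Apoe, summed to 7505 to 9171 TPM at ZT20 and 12773 to 15492 TPM at ZT8, groups that did not overlap. Apoe and Fabp7 fell at ZT20 by limma. Of 8 macrophage markers C1qa fell (log2 difference −1.17, limma adjusted p = 0.0253), and of 7 Schwann cell markers Drp2 rose (0.72, limma adjusted p = 0.0371), both without overlap. The 5 plasma cell markers summed to 267 to 486 TPM at ZT20 and 496 to 935 TPM at ZT8, also without overlap. Of these, Mzb1 fell (log2 difference −2.88, limma adjusted p = 0.0432), and Jchain differed by −3.19 (limma adjusted p = 0.102). Sdc1 (−0.0047), Xbp1 (0.044) and Derl3 (0.0013) were near 0. The part of the macrophage, Schwann cell and plasma cell lists in the results was not tested. Erythroid markers, 5 in number, summed to 2369 to 6679 TPM at ZT20 and 951 to 9534 TPM at ZT8. Of all marker lists no gene was at 0 in every sample. The Y-linked genes Ddx3y, Eif2s3y and Uty were listed at 0 in ZT20 replicates 3 and 4, against their male label, so the main counts of members and of nuclear genes are also given without those libraries. In bulk samples, a changed share of cells and a changed amount of RNA per cell cannot be told apart.

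The summed TPM of the mitochondrially encoded genes was higher on average at ZT20, with overlapping groups. The 13 protein-coding genes summed to 23482, 17151, 25801 and 21139.8 TPM in ZT20 replicates 1 to 4. They summed to 12810.3, 19109 and 8583 TPM in ZT8 replicates 1 to 3. ZT8 replicate 2 thus lay above ZT20 replicate 2, while the other ZT8 samples lay below every ZT20 sample. The 2 rRNAs summed to 1681, 936, 1554 and 1214 TPM at ZT20 and 783, 976 and 485 TPM at ZT8. The 22 tRNAs summed to 224, 467, 657 and 496 TPM at ZT20 and to 146, 202 and 160.4 TPM at ZT8, without overlap. All 37 genes together held 1.86% to 2.80% of TPM at ZT20 and 0.923% to 2.03% at ZT8. The ratio of group means, ZT20 over ZT8, was 1.62 for protein-coding genes, 1.80 for rRNAs and 2.72 for tRNAs. Most of the tRNA sum came from mt-Ts1, which held 71.6% to 77.7% of it at ZT20 and 70.2% to 90.2% at ZT8. For mt-Ts1 alone the groups overlapped, with a ratio of means of 2.47. The other tRNAs summed to 63.6 to 147 TPM at ZT20 and 16.4 to 43.5 TPM at ZT8, without overlap (ratio of means 4.09).

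**Figure D1:**
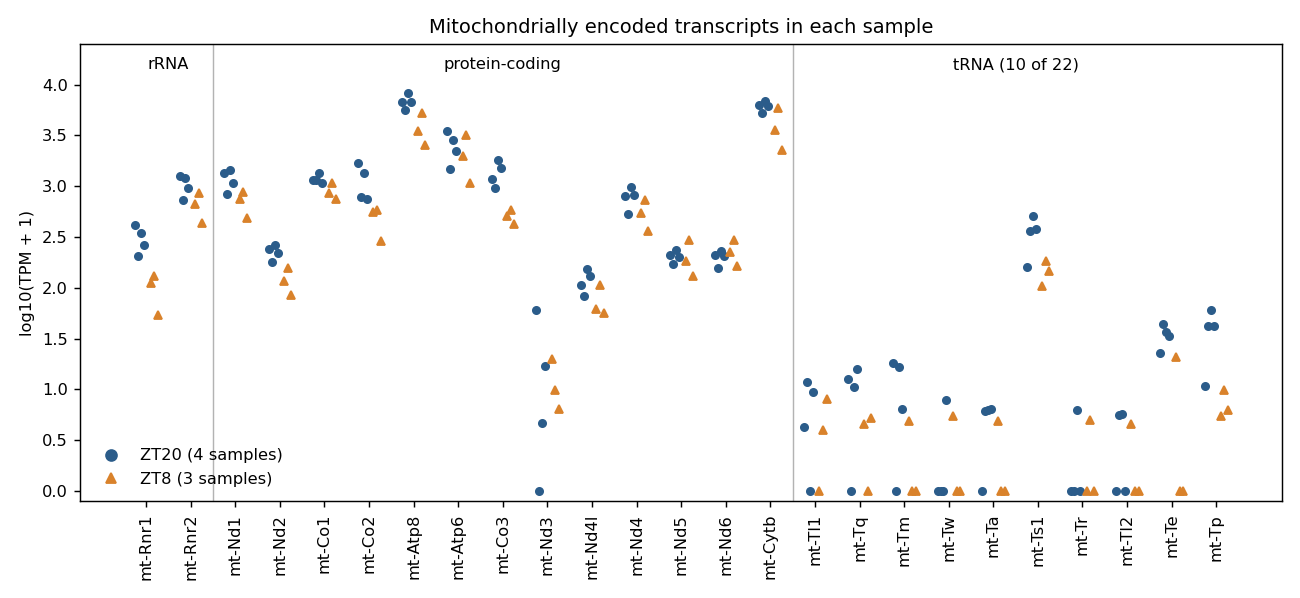
Abundance of the 25 tested mitochondrially encoded genes, as log10(TPM + 1) on the vertical axis, in each of 4 ZT20 samples (circles) and 3 ZT8 samples (triangles). Protein-coding genes span from mt-Nd3, listed at 0 in 1 sample, to mt-Atp8, and of the 70 points of the 10 tested tRNAs 26 lie at 0.

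Genes that averaged 1 TPM or more were tested with limma on log2(TPM + 1), with Benjamini-Hochberg adjustment over all 14800 of them. This covered 25 of the 37 mitochondrial genes, of which 7 had an adjusted p under 0.05, all higher at ZT20: 4 of 13 protein-coding genes, 1 of 2 rRNAs and 2 of 10 tested tRNAs. Over all tested genes 12.8% passed higher at ZT20 and 3.61% lower. Members lower at ZT20 numbered 0 at the adjusted threshold and 0 at an unadjusted limma p of 0.05, where 13 of 25 were higher, beside 3848 of all 14800 tested genes. The difference was positive for 21 of the 25. The median log2 difference was 0.68 for protein-coding genes, 1.19 for rRNAs and 1.22 for tested tRNAs, beside 0.23 for all tested genes. The groups did not overlap for the 7 that passed, and 24.5% of all tested genes were higher and 8.72% lower at ZT20 without overlap.

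These calls depended on single libraries. Without ZT8 replicate 2, 11 members passed, now with mt-Rnr2, mt-Nd1, mt-Co1, mt-Nd4l and mt-Cytb and without mt-Te, beside 2374 of all 14800 genes higher, against 1899 with every library. The count was 1 without ZT20 replicate 3 (mt-Co3), 2 without ZT20 replicate 4 or ZT8 replicate 3, 3 without ZT8 replicate 1, and 4 without ZT20 replicate 1 or 2. In the latter 6 fits 3.67% to 12.4% of all genes were called higher, the lowest share without ZT20 replicate 3. Without ZT20 replicates 3 and 4, limma called 0 members and 0 genes of the whole table at the adjusted threshold, and 6 of 25 members had an unadjusted p under 0.05, all higher at ZT20, beside 12.4% of all genes higher. The difference was still positive for 20 of 25 members in that fit, at 1.65 for mt-Rnr1, 0.85 for mt-Nd2, 1.33 for mt-Co2, 0.77 for mt-Atp8, 1.10 for mt-Co3, 3.53 for mt-Te and 1.61 for mt-Tp. With a score of neuron minus satellite glia markers as covariate, limma also called 0 genes, while 7 of 25 members had an unadjusted p under 0.05, all higher at ZT20, beside 8.39% of all genes higher. In that fit the log2 difference was 1.66 for mt-Rnr1, 1.75 for mt-Co3 and 0.73 for mt-Co2. Because the summed satellite glia markers already separated the groups, this fit cannot tell their share and the group apart. Median-ratio scaling moved the median difference of all tested genes from 0.23 to 0.030 and left 4 members called. Of all genes 1126 were then higher and 1161 lower, beside 1899 and 534 before.

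The 2 rRNAs of the mitochondrial ribosome differed in how they varied. The small-subunit rRNA mt-Rnr1 (ENSMUSG00000064337, chrM:70-1024 on the plus strand, GRCm38) had 413, 203, 345 and 264 TPM in the ZT20 samples and 111, 129 and 53.5 TPM in ZT8 replicates 1 to 3. The lowest ZT20 value thus exceeded the highest ZT8 value. The group means were 306 ± 91.9 TPM (SD, n = 4) and 97.8 ± 39.4 TPM (SD, n = 3). The level differed by 1.68 ± 0.33 (SE) on the log2 scale (limma adjusted p = 0.0147). The adjusted p ranged from 0.0123 to 0.0556 when each library was left out in turn, the highest without ZT20 replicate 3. The large-subunit rRNA mt-Rnr2 (ENSMUSG00000064339) was at 1268, 733, 1209 and 950.5 TPM at ZT20 and 672, 847 and 432 TPM at ZT8. Here ZT8 replicate 2 exceeded ZT20 replicate 2, and the log2 difference of 0.70 (standard error 0.26) did not pass (limma adjusted p = 0.0960).

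Both rRNAs come from the same end of the same precursor, and their ratio within a sample does not depend on how samples are scaled. The level of mt-Rnr1 over mt-Rnr2, both per length, was 0.326, 0.277, 0.285 and 0.277 at ZT20. It was 0.165, 0.152 and 0.124 at ZT8, so the lowest ZT20 ratio was above the highest ZT8 ratio. The mean ratio was 0.291 ± 0.0231 (SD, n = 4) in the ZT20 samples and 0.147 ± 0.0212 (SD, n = 3) in those of ZT8. By contrast mt-Rnr2 over mt-Nd1, the next protein-coding gene on the DNA, was 0.942, 0.879, 0.844 and 0.888 at ZT20 and 0.901, 0.960 and 0.894 at ZT8, with overlapping groups. Of these ratios only the one with mt-Rnr1 separated the groups. These ratios were picked after their values were seen and are given without a test.

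**Figure D2:**
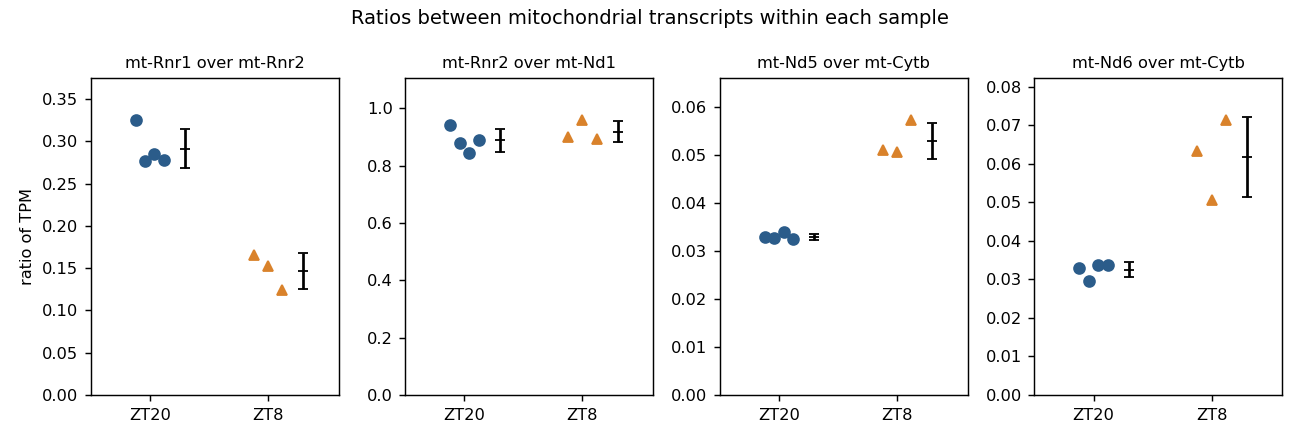
Ratio of TPM between pairs of mitochondrial transcripts within each sample, with circles for 4 ZT20 and triangles for 3 ZT8 samples and bars for the mean ± SD. mt-Rnr1 over mt-Rnr2 and both ratios to mt-Cytb separate the groups, and mt-Rnr2 over mt-Nd1 does not.

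Complex I takes electrons from NADH, and 7 of its subunits are made in the mitochondrion. Of these, mt-Nd2 (ENSMUSG00000064345, chrM:3914-4951 on the plus strand) rose at ZT20, at 242, 179.9, 266 and 217 TPM against 117, 157 and 84.3 TPM at ZT8. Its groups did not overlap, and the log2 difference was 0.95 ± 0.22 (SE, limma adjusted p = 0.0235). The adjusted p ran from 0.00888 to 0.0779 over the fits that left out 1 library, and missed 0.05 without ZT20 replicate 1, 3 or 4 or ZT8 replicate 1 or 3. mt-Nd1 was at 1346, 834, 1432 and 1070.4 TPM at ZT20 and 745, 883 and 483 TPM at ZT8, overlapping through the second replicates (log2 difference 0.75, limma adjusted p = 0.0695). mt-Nd4 was at 535 to 972 TPM at ZT20 and 364 to 729 TPM at ZT8, and mt-Nd4l, which shares an mRNA with it, at 81.5 to 154 and 56.1 to 106 TPM. Neither passed, with log2 differences of 0.54 and 0.68 (limma adjusted p = 0.181 and 0.116). The values of mt-Nd4l leave out its nuclear copy, which held most of the pair's TPM, as given below.

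The subunit genes mt-Nd5 and mt-Nd6 had differences near 0. mt-Nd5 was at 208, 171, 233 and 198 TPM at ZT20 and 181, 297 and 129 TPM at ZT8, and differed by 0.074 ± 0.25 (SE) on the log2 scale. mt-Nd6, the 1 protein-coding gene on the opposite strand of the DNA, was at 209, 156, 232 and 206 TPM at ZT20 and 225, 298 and 161 TPM at ZT8. Its log2 difference was −0.16 ± 0.22 (SE), and the ranges of both genes overlapped between groups. The limma adjusted p-values were 0.856 for mt-Nd5 and 0.639 for mt-Nd6. The sign of mt-Nd5 turned to −0.16 under median-ratio scaling and to −0.21 without ZT8 replicate 3. That of mt-Nd6 turned to 0.058 without ZT8 replicate 2.

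Relative to mt-Cytb, the complex III subunit gene that follows them on the DNA, both genes separated the groups. The TPM of mt-Nd5 was 0.0329, 0.0326, 0.0339 and 0.0324 of that of mt-Cytb in the ZT20 samples. At ZT8 it was 0.0509, 0.0506 and 0.0573. For mt-Nd6 the ratio was 0.0330, 0.0297, 0.0337 and 0.0337 at ZT20 and 0.0632, 0.0507 and 0.0714 at ZT8. The spread within ZT20 was small beside the gap between the groups, with a mean for mt-Nd5 of 0.0329 ± 0.000664 (SD, n = 4) there and of 0.0529 ± 0.00378 (SD, n = 3) among the ZT8 samples. mt-Nd5 over mt-Nd6 was 0.962 to 1.10 at ZT20 and 0.802 to 0.999 at ZT8. This ratio overlapped. mt-Nd5 is the longest mitochondrial mRNA at 1824 nt and mt-Nd6 is 519 nt long in the annotation. They overlap by 14 bases on opposite strands, and whether counting used strand is not given in the sources used here. These ratios, too, were chosen after the values were seen.

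mt-Cytb (ENSMUSG00000064370) and the ATP synthase subunit gene mt-Atp8 (ENSMUSG00000064356, chrM:7766-7969 on the plus strand) were the most abundant members per length as listed. mt-Atp8 overlaps mt-Atp6 by 43 bases, so reads there fit both genes. mt-Cytb was at 6325, 5242, 6870.1 and 6114 TPM at ZT20 and 3564, 5872 and 2256 TPM at ZT8. ZT8 replicate 2 again overlapped the ZT20 range, and the log2 difference of 0.76 (standard error 0.28) did not pass (limma adjusted p = 0.0948). mt-Atp8 was at 6689.7, 5584, 8289 and 6794 TPM at ZT20 and 3456, 5289.6 and 2522 TPM at ZT8, without overlap. It passed, at 0.92 ± 0.24 on the log2 scale (SE, limma adjusted p = 0.0358), and by rank it was among the 7 most abundant genes of every ZT20 sample. At ZT8 its rank was 20, 8 and 29. Its adjusted p ranged from 0.00765 to 0.109 with 1 library left out and stayed under 0.05 only without ZT8 replicate 2. Together both genes held 55.4% to 63.1% of the protein-coding TPM at ZT20 and 54.8% to 58.4% at ZT8.

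Complex IV passes electrons to oxygen, and of its 3 mitochondrial subunit genes mt-Co2 and mt-Co3 rose at ZT20, while mt-Co1 did not pass. Differences between the genes were not tested. mt-Co1 was at 1149, 1152, 1354 and 1069.7 TPM at ZT20 and 862, 1082 and 742 TPM at ZT8 (log2 difference 0.41, limma adjusted p = 0.0884). mt-Co2 was at 1696, 775, 1339 and 753 TPM at ZT20 and 561, 585 and 288 TPM at ZT8. The groups did not overlap, and it passed, at 1.23 ± 0.35 on the log2 scale (SE, limma adjusted p = 0.0445). The adjusted p was 0.0450 to 0.124 with 1 library left out and was under 0.05 only without ZT8 replicate 2. mt-Co3 (ENSMUSG00000064358, chrM:8607-9390 on the plus strand) was at 1188, 970.2, 1815 and 1516 TPM at ZT20 and 506, 577 and 426 TPM at ZT8, with a wide gap between the groups. Its log2 difference was 1.42 ± 0.21 (SE, limma adjusted p = 0.00686), and every fit that left out 1 library kept it under 0.05 (0.00811 to 0.0330). Of the mitochondrial mRNAs it had the lowest adjusted p, yet it is also a gene whose value depends on a nuclear copy.

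Nuclear DNA holds copies of stretches of mitochondrial DNA, and 7 of the 13 protein-coding genes have one in the table that is at least 99% identical over at least 90% of the copy. The copies of mt-Atp6, mt-Co2, mt-Co3, mt-Nd4 and mt-Nd4l had 0 differences over the aligned length, which was 678, 681, 783, 876 and 294 bases. The copy of mt-Nd3 differed at 1 base in 345, written T3C with positions counted from the first base of the mitochondrial gene, and that of mt-Co1 at 1 base in 483, A1066T. The stretches around these bases are shown because they hold the only aligned positions at which a read can tell gene and copy apart. They were read from the GENCODE M21 transcripts (GRCm38), 5′ to 3′, with the differing base in capitals:
mt-Nd3: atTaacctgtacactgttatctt
Gm28438: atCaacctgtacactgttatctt
mt-Co1: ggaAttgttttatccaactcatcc
Gm29216: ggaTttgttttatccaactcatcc

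The division of TPM between gene and copy varied from sample to sample. mt-Nd3 was listed at 59.5, 0, 3.68 and 16.1 TPM in ZT20 replicates 1 to 4 and at 19.1, 8.90 and 5.47 TPM at ZT8. Its copy Gm28438 was listed at 0, 28.2, 52.0 and 28.2 TPM at ZT20 and at 0, 6.53 and 11.7 TPM at ZT8. In ZT20 replicates 1 to 3 and ZT8 replicate 1, 1 of the pair was at 0 or far below the other. Gm28438 thus took 0% to 100% of the pair's TPM. For mt-Atp6 the copy Gm10925 took 61.2%, 77.4%, 69.5% and 70.8% at ZT20 and 57.1%, 52.3% and 61.8% at ZT8. For mt-Co3 the copy Gm28437 took 60.6%, 42.7%, 43.2% and 41.3% at ZT20 and 66.0%, 66.8% and 56.7% at ZT8. For mt-Nd4l the copy Gm10222 took 78.6% to 83.2% at ZT20 and 72.9% to 84.1% at ZT8. The copy of mt-Nd4, Gm28439, was listed at 0 in all samples although it is identical. Over all pairs the 7 copies held 28.2% to 30.3% of the protein-coding TPM with copies at ZT20 and 24.9% to 27.6% at ZT8.

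**Figure D3:**
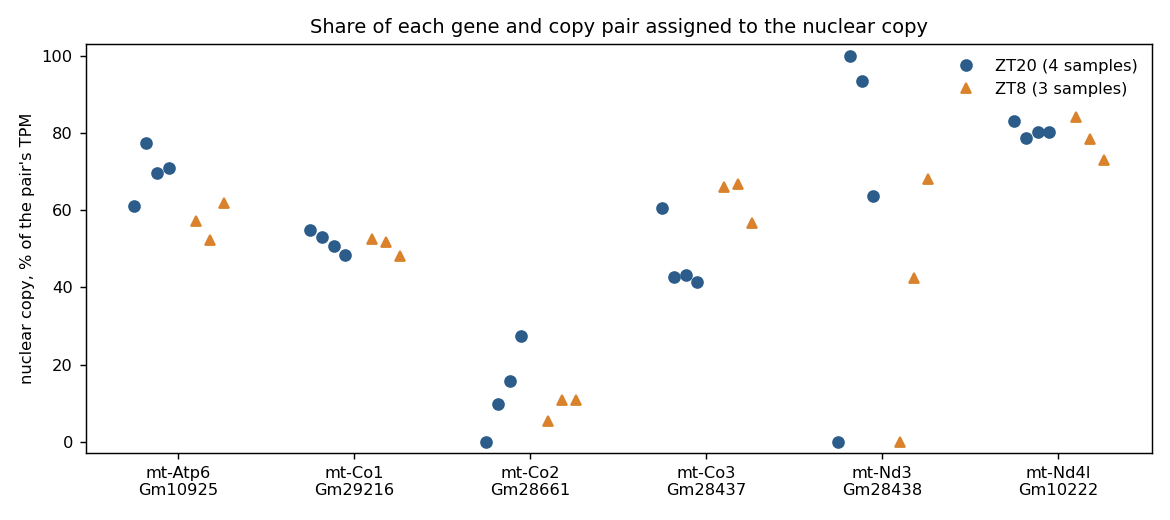
Share of the summed TPM of a mitochondrial gene and its nuclear copy that was assigned to the copy, in percent, for the 6 pairs with a copy above 0, in 4 ZT20 (circles) and 3 ZT8 samples (triangles). The share spans 0% to 100% for mt-Nd3 and stays between 48.1% and 54.9% for mt-Co1.

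Because reads from the aligned stretches mostly cannot tell gene and copy apart, each such gene was also summed with its copy and the whole table was fitted again, a choice made after the values were seen. The aligned stretch was nearly the whole gene for mt-Atp6, mt-Co2, mt-Co3, mt-Nd3 and mt-Nd4l, 63.6% of it for mt-Nd4 and 31.3% for mt-Co1. The sum for mt-Nd3 was 59.5, 28.2, 55.7 and 44.3 TPM at ZT20 and 19.1, 15.4 and 17.1 TPM at ZT8. The groups now separated, and the log2 difference turned from −0.38 (standard error 1.20, limma adjusted p = 0.842) to 1.35 (standard error 0.25, limma adjusted p = 0.0122). The sum for mt-Atp6, a further ATP synthase subunit, was 8899, 6499, 9332 and 7675 TPM at ZT20 and 4576, 6768 and 2789 TPM at ZT8. Its log2 difference moved from 0.34 to 0.86 and did not pass either way (limma adjusted p = 0.567 alone and 0.0633 summed). mt-Co3 moved the other way, from 1.42 to 0.90 (limma adjusted p = 0.0470), with sums of 3018, 1692, 3197 and 2580.5 TPM at ZT20 and 1488, 1737 and 984 TPM at ZT8 that overlapped. mt-Co2 passed in both forms, at 1.31 with its copy (limma adjusted p = 0.0253). mt-Nd4l with its copy was at 382 to 781 TPM at ZT20 and 207 to 490 TPM at ZT8. Its log2 difference of 0.81 did not pass (limma adjusted p = 0.112). In this fit 8 members passed, all higher at ZT20, beside 12.9% of all genes higher and 3.62% lower.

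**Figure D4:**
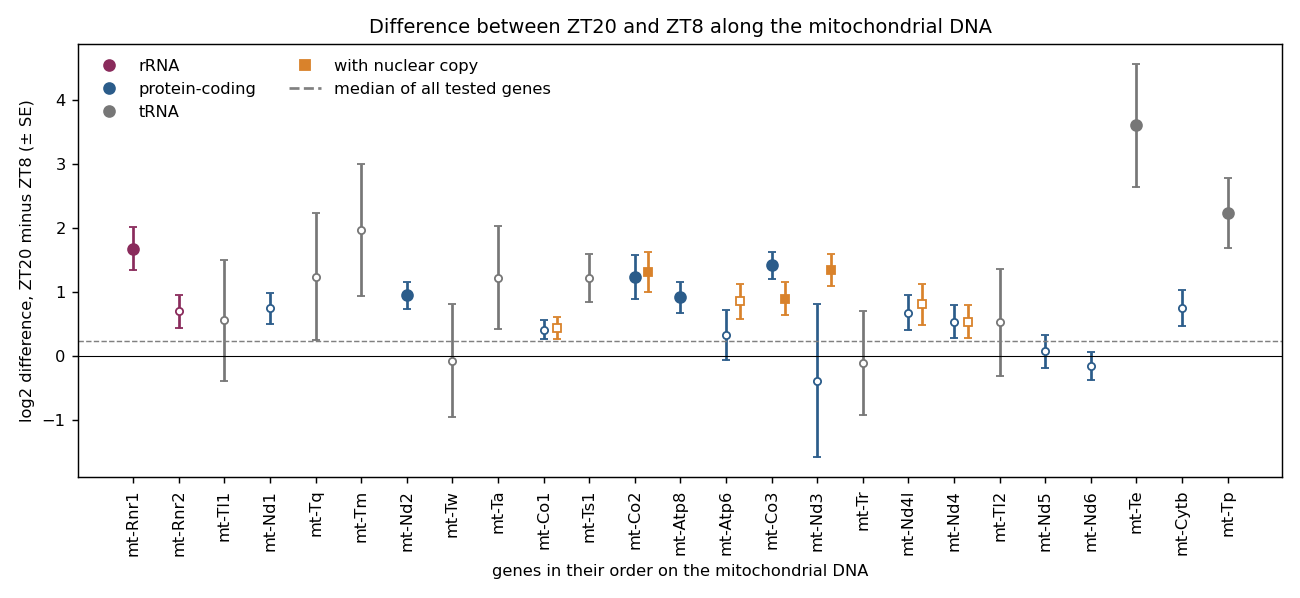
Log2 difference (ZT20 minus ZT8) on the log2(TPM + 1) scale with its standard error for the 25 tested genes, in their order on the mitochondrial DNA, with squares for the gene summed with its nuclear copy and a dashed line at 0.23 for the median of all tested genes. Filled symbols passed limma's adjusted p of 0.05, and mt-Nd3 shifts most when the copies are added.

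Within the pool of mitochondrial mRNAs, copies included, the shares of the most abundant transcripts overlapped between the groups. The share of mt-Atp6 was 25.9% to 27.2% at ZT20 and 23.7% to 26.6% at ZT8, and that of mt-Cytb 19.1% to 21.3% and 19.2% to 23.1%. mt-Nd5 made up 0.636%, 0.694%, 0.647% and 0.673% at ZT20 and 1.02%, 1.17% and 1.10% at ZT8. mt-Nd6 made up 0.632% to 0.699% at ZT20 and 1.17% to 1.37% at ZT8. mt-Nd4 had shares of 2.18% to 2.76% at ZT20 and 2.87% to 3.10% at ZT8, also lower at ZT20 without overlap. The shares of mt-Nd2 (0.731% to 0.740% against 0.617% to 0.717%) and mt-Co2 (3.49% to 5.19% against 2.58% to 3.35%) were higher at ZT20 without overlap. The remaining shares, 8 with those of mt-Atp6 and mt-Cytb, overlapped.

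Mitochondrial tRNAs carry amino acids to the mitochondrial ribosome, and most of the 22 were at or near 0 TPM. Of these genes, 8 were listed at 0 in all 7 samples (mt-Tv, mt-Ti, mt-Tn, mt-Tc, mt-Tk, mt-Th, mt-Ts2 and mt-Tt). Of the 154 values 106 were 0, and only mt-Ts1 and mt-Tp were above 0 in every sample. Those that the results turn on are mt-Ts1 for serine, the most abundant, and mt-Te for glutamate and mt-Tp for proline, which passed the test. Their sequences are from the GENCODE M21 transcripts (GRCm38), 5′ to 3′, each on the minus strand, with the anticodon in capitals, at chrM:6870-6938, chrM:14071-14139 and chrM:15356-15422:
mt-Ts1: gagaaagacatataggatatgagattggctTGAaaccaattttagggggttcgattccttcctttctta
mt-Te: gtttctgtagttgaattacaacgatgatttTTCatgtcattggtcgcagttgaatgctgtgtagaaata
mt-Tp: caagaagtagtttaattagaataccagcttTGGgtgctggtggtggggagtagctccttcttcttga

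The small tRNA values moved in steps. When each value was multiplied by a weight that depended only on the annotated length (8 for 67 nt, 9 for 68 or 69 nt, 10 for 70 or 71 nt and 12 for 75 nt), 41 of the 48 values above 0 were whole multiples, within 1%, of the smallest value of their sample. The smallest value itself and values above 50 units are whole by construction, and of the other 38 values 31 were whole. For a tRNA of 69 nt this unit was worth 3.93 to 5.45 TPM. The weights were found from these values. If 1 unit is 1 sequenced fragment, tRNAs other than mt-Ts1, mt-Te and mt-Tp rested on at most 4 fragments in a library. mt-Te and mt-Tp did not exceed 10 units in any sample.

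**Figure D5:**
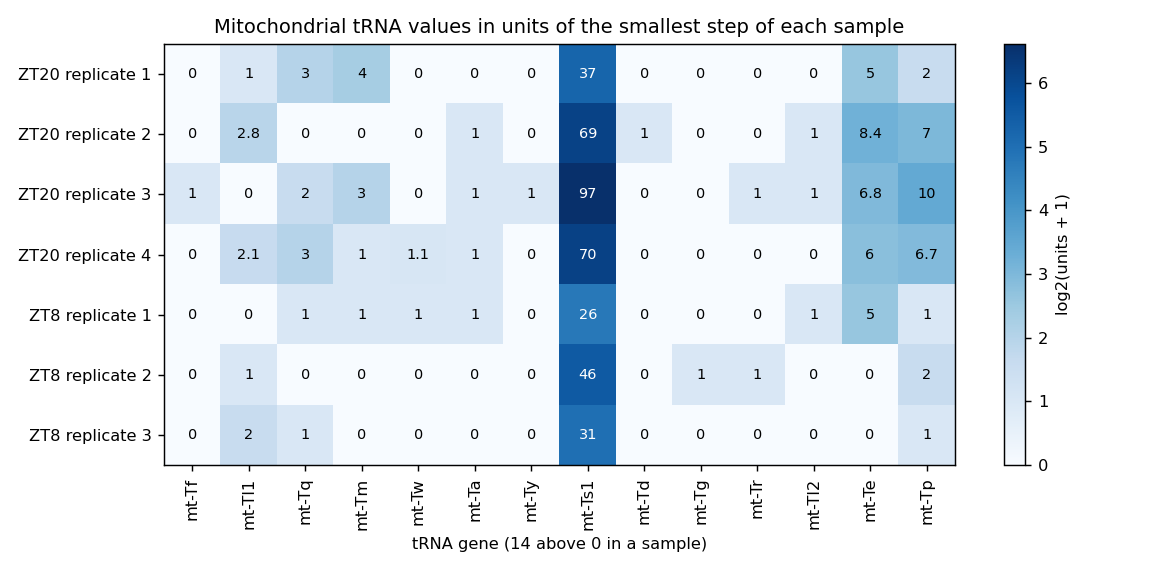
Values of the 14 tRNA genes above 0, per sample, as multiples of the smallest weighted value of that sample, with shading by log2(units + 1). mt-Ts1 reaches 97 units in ZT20 replicate 3, while most cells hold 0 or 1.

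mt-Te (ENSMUSG00000064369) had 21.6, 43.3, 35.6 and 32.7 TPM in the ZT20 samples. The value was 19.7 TPM in ZT8 replicate 1 and listed at 0 in ZT8 replicates 2 and 3. In units this was 5, 8.4, 6.8 and 6 at ZT20 and 5, 0 and 0 at ZT8, so ZT20 replicate 1 and ZT8 replicate 1 had the same number. A 0 allows up to 3 units, or 11.9 and 13.9 TPM, in ZT8 replicates 2 and 3, for counting error only. The log2 difference was 3.60 ± 0.96 (SE, limma adjusted p = 0.0369). With values at 0 its size depends on the pseudocount, and at 0.1 in place of 1 it was 5.80 and did not pass (limma adjusted p = 0.0510). With the pseudocount of 1 it missed the threshold in 6 of the 7 fits without 1 library, all but the one without ZT8 replicate 1, with adjusted p up to 0.101.

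mt-Tp (ENSMUSG00000064372) was at 9.74, 40.8, 59.2 and 40.9 TPM at ZT20 and 4.42, 8.89 and 5.23 TPM at ZT8, or 2, 7, 10 and 6.7 units against 1, 2 and 1. ZT20 replicate 1 lay just above the ZT8 samples and far below the other ZT20 samples. The log2 difference was 2.23 ± 0.54 (SE, limma adjusted p = 0.0275). With 1 library left out the adjusted p ran from 0.00787 to 0.0848, and it missed 0.05 without ZT20 replicate 2, 3 or 4 or ZT8 replicate 1 or 3. mt-Ts1 (ENSMUSG00000064352) was at 160.2, 357, 511 and 382 TPM at ZT20 and 102, 182 and 144 TPM at ZT8, or 37, 69, 97 and 70 units against 26, 46 and 31. ZT20 replicate 1 lay within the ZT8 range, and the log2 difference of 1.22 (standard error 0.37) did not pass (limma adjusted p = 0.0545). Without ZT20 replicate 1 it was 1.56 (limma adjusted p = 0.0170), and the fits without another library gave limma adjusted p from 0.0523 to 0.140. Among the other tested tRNAs, mt-Tm for methionine had the largest log2 difference, 1.97 ± 1.03 (SE), from 4, 0, 3 and 1 units at ZT20 and 1, 0 and 0 at ZT8 (limma adjusted p = 0.207). Without ZT20 replicate 2, which is at 0, it was 2.88 (limma adjusted p = 0.0441), and the fits without another library gave limma adjusted p from 0.122 to 0.399. The log2 difference was 1.24 for mt-Tq, 1.22 for mt-Ta, 0.56 for mt-Tl1, 0.53 for mt-Tl2, −0.073 for mt-Tw and −0.11 for mt-Tr, with limma adjusted p from 0.307 to 0.960. mt-Tf, mt-Ty, mt-Td and mt-Tg had 1 unit in 1 sample each and were not tested.

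mt-Ts1, mt-Te and mt-Tp share a strand. Of the 22 tRNA genes 8 are on the minus strand with mt-Nd6, and these summed to 134 to 626 TPM per sample. The 14 on the plus strand, with the rRNAs and the other 12 mRNAs, summed to 6.97 to 31.1 TPM. In the annotation mt-Ts1 overlaps the end of mt-Co1 by 3 bases on the opposite strand, mt-Te adjoins mt-Nd6 and lies 5 bases from mt-Cytb, and mt-Tp lies next to mt-Tt after mt-Cytb. Since strand use is not given, reads of a plus-strand precursor that runs across these places cannot be told apart from the tRNAs. mt-Ts1 over mt-Co1 was 0.139, 0.310, 0.377 and 0.357 at ZT20 and 0.119, 0.168 and 0.194 at ZT8, with overlap.

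The nuclear genome supplies the enzymes that copy, cut and stabilise these RNAs. The table held 96 such genes, of which 94 were tested. By limma, 9 passed as higher and 3 as lower at ZT20, beside 12.8% and 3.61% of all tested genes. Their median log2 difference was 0.13, beside 0.23 for all tested genes. Of the 9 transcription genes 2 were higher and 1 lower, and of 8 stability and decay genes 3 were higher. Of 14 cleavage genes 1 was higher and 1 lower, of 16 tested genes for rRNA modification and assembly 1 was lower, and of 22 mitochondrial aminoacyl-tRNA synthetases 3 were higher. By limma 0 of 16 tRNA modification genes and 0 of 9 tested replication genes passed, and at an unadjusted p under 0.05 2 of the former were higher and 1 lower, and 1 of the latter was higher, beside 26% of all tested genes higher. Without ZT20 replicates 3 and 4, limma called 0 of the 94, and 13 had an unadjusted p under 0.05 in either direction, beside 2425 of all 14800 genes (16.4%).

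Polrmt, the mitochondrial RNA polymerase, was at 15.2, 12.4, 13.9 and 13.9 TPM at ZT20 and 9.47, 8.48 and 9.04 TPM at ZT8 (log2 difference 0.57, limma adjusted p = 0.0427). Tfam, which packages the DNA and starts transcription, was at 8.90 to 11.8 TPM at ZT20 and 8.90 to 11.2 TPM at ZT8, with overlap (limma adjusted p = 0.773). The transcription termination factor gene Mterf1a was higher at ZT20, at 2.69 to 3.71 against 0.250 to 0.665 TPM (limma adjusted p = 0.00825). Mterf1b of the same list was at 1.06 to 1.46 TPM at ZT20 and 0.281, 2.22 and 0.338 TPM at ZT8, with overlap (limma adjusted p = 0.557). The elongation factor gene Tefm was lower at ZT20, at 15.97 to 22.95 against 31.5 to 50.7 TPM (limma adjusted p = 0.0158). Lrpprc and Slirp encode partners in a complex that protects mitochondrial mRNAs, and both rose at ZT20. Lrpprc was at 37.8, 31.7, 39.8 and 44.0 TPM against 25.01, 11.99 and 21.04 TPM (log2 difference 1.00, limma adjusted p = 0.0280). Slirp was at 161, 166, 138 and 145 TPM against 86.5, 83.1 and 95.2 TPM (log2 difference 0.78, limma adjusted p = 0.00673).

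Among the nucleases that free the tRNAs, 5′ cleavage is the work of a complex of Trmt10c, Hsd17b10 and Prorp, and Elac2 cuts the 3′ end. Hsd17b10, also a dehydrogenase, fell at ZT20, at 84.7 to 112 against 138 to 190.2 TPM (log2 difference −0.66, limma adjusted p = 0.0235). Trmt10c was at 13.05 to 14.6 TPM at ZT20 and 10.9 to 14.2 TPM at ZT8 (limma adjusted p = 0.649), and Elac2 at 20.4 to 28.1 and 5.72 to 24.4 TPM (limma adjusted p = 0.238). The synthetase genes that rose were Lars2 (log2 difference 1.29), Iars2 (0.84) and Kars (0.63), which load leucine, isoleucine and lysine, with limma adjusted p-values of 0.0122, 0.0208 and 0.0389. Kars also serves the cytosol. The helicase gene Dhx30 was higher (log2 difference 0.66, limma adjusted p = 0.0382) and Ngrn, needed for the large-subunit rRNA, lower at ZT20 (log2 difference −0.58, limma adjusted p = 0.0211). When each library was left out in turn, Slirp and Mterf1a passed in all 7 limma fits. Lars2 missed the threshold without ZT20 replicate 3, Tefm without ZT20 replicate 3 or 4, and Hsd17b10 without ZT20 replicate 1, 3 or 4. Lrpprc, Iars2 and Ngrn missed it when any 1 of these or ZT8 replicate 3 was left out. Kars and Dhx30 also missed it without ZT20 replicate 2, and Polrmt passed only without ZT8 replicate 2.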

How the data were processed

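Per the submitters' processing notes, FastQC 0.11.9, Trim Galore 0.6.6 and Salmon 1.6.0 were among the tools and GRCm39 was the build. The annotation release and any scaling between samples are not given in the sources used here. The authors deposited TPM, with 1 column per sample. Depth is unknown beyond the tRNA steps. The 7 columns were matched to samples by title, and groups follow the titles.

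Values were analysed as log2(TPM + 1), which understates differences of low genes. Genes that averaged 1 TPM or more were fitted with limma 3.58.1 (trend on, R 4.3.3, two-sided, Benjamini-Hochberg) over all samples without covariates. The script was tested on simulated data. Classes, strand and sequences came from GENCODE M21 (GRCm38), joined by gene identifier. Nuclear copies were found with blastn 2.17.0 at a minimum of 99% identity over 90% of the copy. Anticodons were located by a 5-pair stem around a 7-base loop.

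All 37 genes are accounted for. Named with values are protein-coding and rRNA genes, tRNAs past the threshold, often at 0 or at the extremes, and at most 10 nuclear genes past the threshold without overlap, by size of difference, beside Polrmt, Tfam, Lrpprc, Slirp, Trmt10c and Elac2. Mterf1b is given beside Mterf1a. Members and lists were chosen with earlier results of these data known. Alternatives were other pseudocounts, filters, scalings, fits, covariates and sample sets. The library identifiers are numbers at ZT20 and letters at ZT8, so any batch behind them and the group cannot be told apart.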

Additional observations from a re-analysis of the deposited data

Results flagged for a closer look

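In 4 of 45 results examined, 1 ZT20 sample lay far from the other 3, with a gap to its nearest neighbour larger, as a share of the group's range, than Dixon's critical value for 4 samples, and chance gives about 1 in 20, or 2.25. The ratio of mt-Rnr1 to mt-Nd1 was 0.307 in ZT20 replicate 1 and 0.241 to 0.246 in the other ZT20 samples, a gap of 0.918 of the range, and all lay above the 0.111 to 0.149 of ZT8. mt-Ta was listed at 0 in ZT20 replicate 1, while the other ZT20 values were 5.18 to 5.45 TPM (0.950), or 1 unit each. mt-Tw, above 0 in ZT20 replicate 4, and mt-Tr, above 0 in ZT20 replicate 3, each had 3 values at 0 and 1 above, which always gives a gap of 1.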

How the results depend on the processing

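The median log2 differences of protein-coding genes and rRNAs and the summed TPM of each class moved by less than the spread between replicates under every alternative run for them. Counts of genes higher at ZT20 did not hold as well; their causes were not tested. Against 4 protein-coding, 1 rRNA and 2 tRNA genes, a pseudocount of 0.1 left 1 tRNA, and no filter 1 protein-coding gene, 0 rRNAs and 0 tRNAs by limma, with 12 of 29 tested members higher at an unadjusted p under 0.05, beside 15.7% of all genes. Median-ratio scaling left 1 protein-coding gene, quantile normalization 0 tRNAs, and no intensity trend 2 protein-coding genes and 1 tRNA. Array weights gave 9 protein-coding genes and 2 rRNAs, and an adjusted p of 0.10 gave 7 and 2. The share of all genes called higher moved too, from 12.8% to 11.7% at the pseudocount of 0.1, 3.07% without a filter, 7.61% under median-ratio scaling, 6.91% under quantile normalization, 12.6% without the trend, 20.1% with array weights, 20.9% at 0.10 and 3.74% when corrected for length and GC. The share called lower moved from 3.61% to 3.34%, 0.627%, 7.84%, 5.5%, 2.24%, 6.2%, 6.63% and 5.08% in the same order, so that more genes were lower than higher after correcting for length and GC or scaling by median ratio. The marker covariate and the set without ZT20 replicates 3 and 4 left 0 in each class. The length and GC correction left 1 tRNA. The nuclear genes (9 higher, 3 lower) numbered 4 higher without a filter, 5 and 7 (higher and lower) under median-ratio scaling, 5 and 6 under quantile normalization, 17 and 5 with array weights, 14 and 5 at 0.10, 4 and 6 when corrected for length and GC, and 0 and 0 with the marker covariate or without ZT20 replicates 3 and 4.

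The replicate numbers do not tie samples to an animal, and deviations of same-numbered samples correlated at −0.014, 0.15 and 0.083. With the replicate block 1 protein-coding gene and 4 higher nuclear genes passed, beside 6.02% of all genes higher. Block and length and GC correction together left 2 protein-coding genes, 1 tRNA and 2 higher nuclear genes, with a tRNA median of 0.35, beside 1.8% of all genes higher. The tRNA median of 1.22 was 0.68 without a filter, 1.97 at a mean of at least 5 TPM and 0.66 without ZT20 replicates 3 and 4.

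With each replicate left out, the counts ran from 1 to 8 protein-coding, 0 to 2 rRNA and 0 to 2 tRNA genes, and from 2 to 15 higher and 0 to 4 lower nuclear genes. The class medians ran from 0.42 to 0.93, 0.86 to 1.42 and 0.78 to 1.41. Sign changes of the tested members and named nuclear genes were of differences that had not passed: mt-Nd5 to −0.16 (median-ratio scaling), −0.020 (without ZT20 replicates 3 and 4) and −0.21 (without ZT8 replicate 3), with −0.21 to 0.39 over the fits without 1 library; mt-Nd6 to 0.085 (array weights), 0.17 (marker covariate) and 0.058 (without ZT8 replicate 2), with −0.38 to 0.058 over those fits; mt-Tm to −0.35 (marker covariate); mt-Atp6 to −0.077 without ZT8 replicate 3, with −0.077 to 0.72 over those fits. mt-Nd3 turned to 1.35 with its copy, to 0.64 without ZT20 replicate 2 and to 0.061 without ZT8 replicate 1, and over the fits without 1 library ran from −1.34 to 0.64. Among the tRNAs of few units, mt-Tr turned to 0.11 (replicate block), 1.11 (array weights) and 1.01 (marker covariate), mt-Tw to 1.93 and mt-Tq to −1.22 (marker covariate), and mt-Tl1 to −0.42 (block with length and GC correction). Over the fits without 1 library mt-Tr ran from −0.77 to 0.66, mt-Tw from −0.81 to 0.74 and mt-Tl1 from −0.27 to 1.30. Tfam turned to −0.13 (median-ratio scaling), −0.24 (quantile normalization), −0.27 (length and GC), −0.24 (with the block) and −0.013 (without ZT20 replicates 3 and 4). Trmt10c turned to −0.10, −0.19, −0.013 and −0.0015 in the first 4 of these, and Elac2 to −0.50 with the marker covariate.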
